A study of Mus musculus with 9 samples.

Results

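Bone marrow stromal cells of mice with leukemia in its medium phase (M) were compared with the same sorted fraction of wild-type mice (WT). The comparison took 6 of the 9 arrays of the series, 3 M and 3 WT, and was followed over all genes rather than over a selected set. For each of 18194 genes, 1 probe set was kept, that with the highest mean signal across the series. The brighter of these by mean signal, 9097 genes, were tested, and 7037 of them had a clear WT signal, defined as at least 8 (log2) on each of the 3 WT arrays. Values are log2 MAS5 signals, so a difference of 1 is a doubling. All mice were of the FVB/NJ strain, and all cells were sorted from bone marrow as negative for CD45.1 and Ter119. The M mice were leukemic recipients whose marrow held between 5 and 50% leukemic cells, the WT mice carried no leukemia, and the remaining 3 arrays came from recipients in the early phase (E, 1 to 5%). The labels do not name the leukemia, its driving gene, the ages of the mice or whether marrows were pooled. They call the arrays of a group biological replicates.

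The stroma of the marrow is made of perivascular mesenchymal cells, bone and cartilage cells, fat cells and vessels, embedded in a matrix of collagens and proteoglycans. Perivascular cells that bear the leptin receptor are the main source of the chemokine Cxcl12 and of stem cell factor (Kitl), which hold and feed blood-forming stem cells. CD45 marks leukocytes in general and CD45.1 is 1 of its allelic forms, while Ter119 appears on red cell precursors only as they mature, so neither antibody defines stroma by a marker of its own.

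The WT arrays resembled each other, with root mean square log2 differences between pairs of 0.242 to 0.250 over the tested genes. Of the M arrays, replicates 1 and 2 were 0.215 apart, whereas replicate 3 was 0.442 from each of them. WT and M arrays were 1.10 to 1.12 apart for M replicates 1 and 2 and 1.34 to 1.35 for M replicate 3. All arrays had a trimmed mean of 500.0 on the linear scale. Over all 45101 probe sets, exact zeros numbered 483 to 517 on the WT arrays and 249 to 338 on the M arrays. The median over these probe sets was 5.60 to 5.68 on the WT arrays and 6.24 to 6.28 on the M arrays. Dim signals were thus higher in M in general, and small rises of dim genes are to be read beside that. Its cause was not tested. The number of arrays limits the precision of every value below. Because M replicate 3 stood apart, changes of named genes that moved by more than 1.5 times without it are given both ways below. The 3' minus 5' signal of Actb, which rises when RNA is degraded, was 1.06 ± 0.08 in WT and 1.17 ± 0.17 in M (SD, n = 3, exact permutation p = 0.5, two-sided). That of Gapdh was 0.07 ± 0.12 in WT and 0.28 ± 0.18 in M (exact permutation p = 0.2, two-sided), with 0.43 and 0.34 on M replicates 1 and 2, above all WT arrays. The part of RNA quality in the results was not tested.

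The labelled cell type was checked against its markers. In WT, 3 of 10 tested markers of mesenchymal stromal cells had a clear signal, while all 14 tested erythroid genes did. Their part in the results was not tested. The summed linear signal of all 14 mesenchymal markers on the array was 2134 to 2387 in WT and 29719 to 40107 in M. The mean log2 level of the erythroid genes was 12.42 ± 0.07 in WT and 12.19 ± 0.60 in M (SD, n = 3). In such bulk samples, fewer cells of a type and less RNA per cell cannot be told apart.

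Most genes differed between M and WT. At an adjusted p under 0.05, 6259 genes (68.8%) were called, 2306 higher in M (25.3%) and 3953 lower (43.5%). The arrays of the groups did not overlap in 6553 genes (72%), with M higher in 2414 (26.5%) and lower in 4139 (45.5%). The median log2 difference over all tested genes was -0.19. The brightness filter used the mean over all 9 arrays, so a gene that is dim in WT could pass it through the M or E arrays, and one that passed through M had to be higher there. Of 506 tested genes with a WT mean under the filter, 469 were called higher and 0 lower, a balance that the filter set. Among the other 8591 tested genes, 1837 were higher and 3953 lower. Counts of calls over gene lists are therefore given for members with a clear WT signal, which no M array can bring in. Members without one enter no such count, though some are named beside it. Those with a WT mean under the filter are given without p-values. As higher M or E arrays were needed to pass it, their rises are given as values only. The rises were large and the falls were small. Among called genes, 1291 were at least doubled and 165 at least halved, 770 rose at least 4-fold and 0 fell that far, and 167 rose at least 16-fold. The deepest fall was 2.91-fold.

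Of the 7037 genes with a clear WT signal, 4942 (70.2%) were called, 1157 higher (16.4%) and 3785 lower (53.8%), with a median of -0.30. Counts over gene lists below are to be read beside these shares. At least a doubling was reached by 403 of them, at least 4-fold by 183, 8-fold by 82 and 16-fold by 17. Calls differed with the WT level. Of 1408 genes with a mean WT signal between 8 and 9, 27.98% were higher and 26.4% lower. Of 779 genes between 12 and 13, 7.96% were higher and 73.6% lower, with a median of -0.45. A change from a WT signal near background also depends on how background was subtracted, so its size is not well defined.

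**Figure D1:**
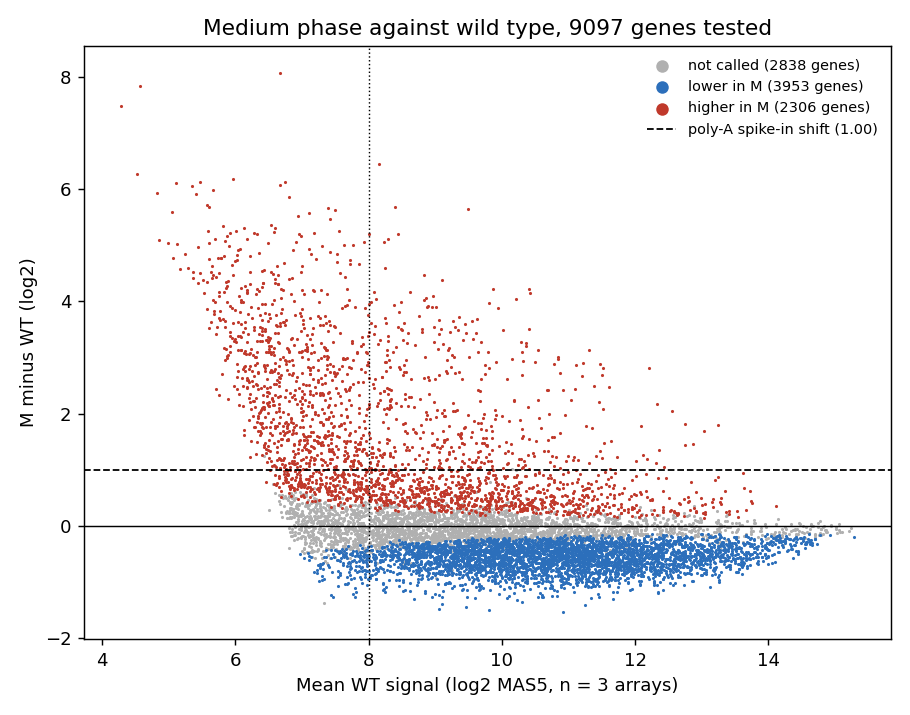
Log2 difference between M and WT (vertical axis) against the mean WT signal (horizontal axis, log2 MAS5, n = 3 arrays) for the 9097 genes tested. Red points (2306) were called higher in M, blue points (3953) lower and grey points were not called, the dotted line marks a WT signal of 8, and the dashed line marks the spike-in shift of 1.00, under which rises turn into falls when arrays are scaled on the spike-ins.

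How many genes rose depended on the yardstick. Poly-A RNAs of bacterial genes (dap, lys, phe and thr) are added to a sample in fixed amounts before labelling, and their 24 probe sets averaged 8.84, 8.96 and 9.15 on the WT arrays and 10.31, 9.73 and 9.93 on the M arrays. All M arrays lay above all WT arrays. The mean was 8.98 ± 0.16 in WT and 9.99 ± 0.29 in M (SD, n = 3), a shift of 1.00 or 2.00-fold (two-sided exact permutation test, p = 0.1, which is the lowest possible p for groups of 3). Each of the 24 probe sets was higher in M, by 0.66 to 1.43. By transcript the shift was 1.08 for dap, 0.91 for lys, 0.90 for phe and 1.12 for thr. The 18 probe sets of hybridization controls, which are added after labelling, shifted by 0.17 (exact permutation p = 0.1, two-sided). Dosing of the spike-ins and the amount of sample RNA cannot be told apart from these values.

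With the arrays scaled on the spike-ins, the median difference became -1.19. Then 972 genes (10.7%) were called higher and 7204 (79.2%) lower. Of the 2306 genes called higher on the deposited scale, 972 remained higher, 857 were no longer called and 477 were called lower. All 3953 genes called lower remained lower, and 2774 genes that had not been called joined them. Among the 7037 genes with a clear WT signal, 272 were higher and 6333 lower, with a median of -1.30. Counts and medians of gene lists with spike-in scaling are to be read beside these values. The spread of the spike-ins between arrays is shared by all genes on this scale, and limma then set the residual variance nearly alike for every gene, so its p-values do not carry that shared error. Counts on the spike-in scale are therefore given below without p-values. All counts on this scale, and each gene named as called or not called on it, still rest on the p-values of that fit. They leave out the shared error too, so they describe this scale and are not separate evidence for any list or gene. Rises beyond about a doubling kept their direction on either scale, while smaller ones did not.

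**Figure D2:**
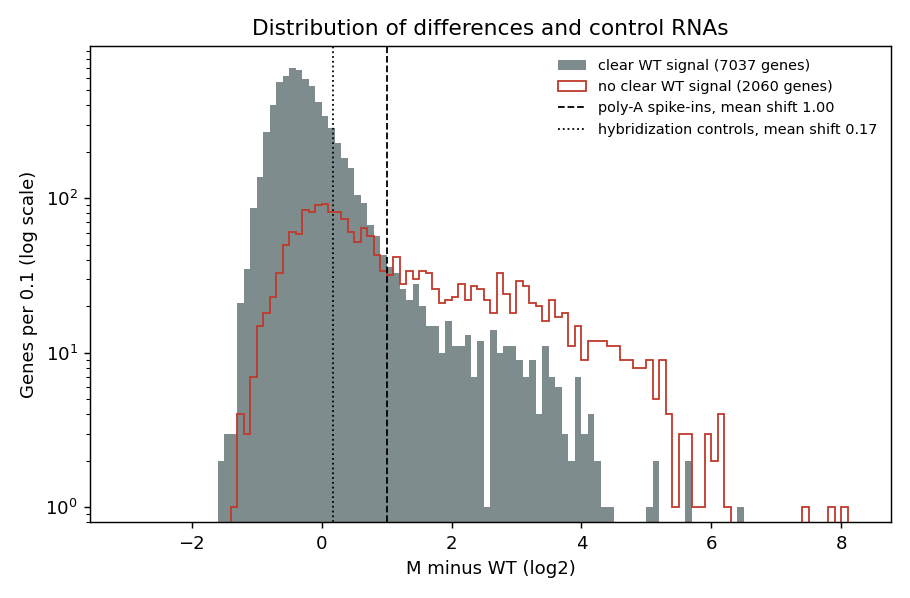
Number of genes per 0.1 of log2 difference between M and WT (horizontal axis; vertical axis on a log scale) for the 7037 genes with a clear WT signal (filled) and the 2060 without (red outline). The dashed line marks the mean shift of the poly-A spike-ins (1.00) and the dotted line that of the hybridization controls (0.17). Genes without a clear WT signal could pass the filter through M, so their excess on the right was partly set by it; with spike-in scaling all values move left by 1.00.

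Several cytokines of the niche were much higher in M. Of 15 on the array, 9 passed the filter, 5 of them with a WT mean under it, and only Cxcl12 had a clear WT signal. Cxcl12, a chemokine that keeps blood stem cells in place, read 8.61, 8.53 and 8.75 in WT and 12.82, 12.75 and 12.80 in M (change 4.16 ± 0.08 SE, adjusted p = 4.91e-11). The M arrays were almost level with each other and all stood about 4 log2 units above the WT arrays. Kitl, stem cell factor, read 6.33, 6.01 and 6.73 in WT and 10.75, 10.52 and 10.36 in M. Its WT signals all lay under the filter of 6.83, so it was tested only because other arrays were higher, and no p-value is given. Here M replicate 3, the array that stood apart, was the lowest of the M arrays. Vcam1, an adhesion molecule of stromal cells and macrophages, rose by 3.57 ± 0.18 SE, Csf1, the growth factor of macrophages, by 4.35 ± 0.24 SE, and Igf1, an insulin-like growth factor, by 5.17 ± 0.38 SE.

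Ptn, the growth factor pleiotrophin, read 5.05, 5.60 and 5.74 in WT and 10.95, 11.01 and 12.82 in M. Its highest M value, on replicate 3, lay well above the other M arrays. Angpt1, a ligand of the Tie2 receptor of vessels and stem cells, rose by 1.20 ± 0.23 SE, but it was not called with spike-in scaling. Tgfb1, named after its value was seen, did not pass the test (-0.18). Il7, the lymphoid growth factor, lay under the brightness filter, at 4.58 to 5.40 in WT and 7.02 to 7.56 in M.

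Several markers of mesenchymal cells were higher too. Of 14 on the array, 10 passed the filter and 3 had a clear WT signal, of which 2 rose and 1 fell. Nt5e, the surface enzyme CD73, read 8.04, 8.02 and 8.19 in WT and 11.19, 11.25 and 12.07 in M (3.42 ± 0.21 SE, adjusted p = 1.31e-07). Like other members with a clear WT signal that fall outside the naming rule, Nt5e was chosen after its values were seen. The other riser was Cxcl12. Lepr, the leptin receptor, read 6.95, 6.56 and 7.34 in WT and 12.17, 11.94 and 12.31 in M. Pdgfra, a receptor of platelet-derived growth factor, read 5.21, 5.68 and 6.08 in WT and 11.29, 11.32 and 12.31 in M. Its WT signals lay near the median of all probe sets, so no fold is given. Pdgfrb, its partner on pericytes, read 6.79, 6.79 and 7.25 and then 12.41, 12.32 and 12.69. In each of these receptors the groups were separated by more than 4 log2 units, and M replicate 3 was the highest array.

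The homeobox gene Prrx1, which marks skeletal and stromal progenitors, rose by 5.91 ± 0.32 SE. Its WT mean of 5.40 lay under the filter, so a rise was needed to pass it. Eng, a TGF-beta co-receptor found on endothelium and mesenchymal cells, fell by 0.35 (adjusted p = 0.00577), from 9.43 to 9.52 in WT to 9.03 to 9.21 in M, and was the third of the markers with a clear WT signal. Of 33 mesenchymal transcription factors on the array, 12 passed the filter and 5 had a clear WT signal. Of these, 3 rose and 1 fell, with a median of 0.43, while 0 were higher and 3 lower with spike-in scaling. Runx1, a factor of blood and bone, was among them (0.85, and -0.15 with spike-in scaling). Among factors without a clear WT signal, the zinc finger factor Snai2 (4.21 ± 0.25 SE), the leucine zipper factor Maf (4.13 ± 0.19 SE) and Nfib (4.75 ± 0.32 SE) rose. Nfia, of the same family as Nfib, fell by 0.45 (adjusted p = 0.00478). Nes, which codes for the intermediate filament nestin, was under the filter too, at 5.94 to 6.53 in WT and 6.995 to 7.15 in M.

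**Figure D3:**
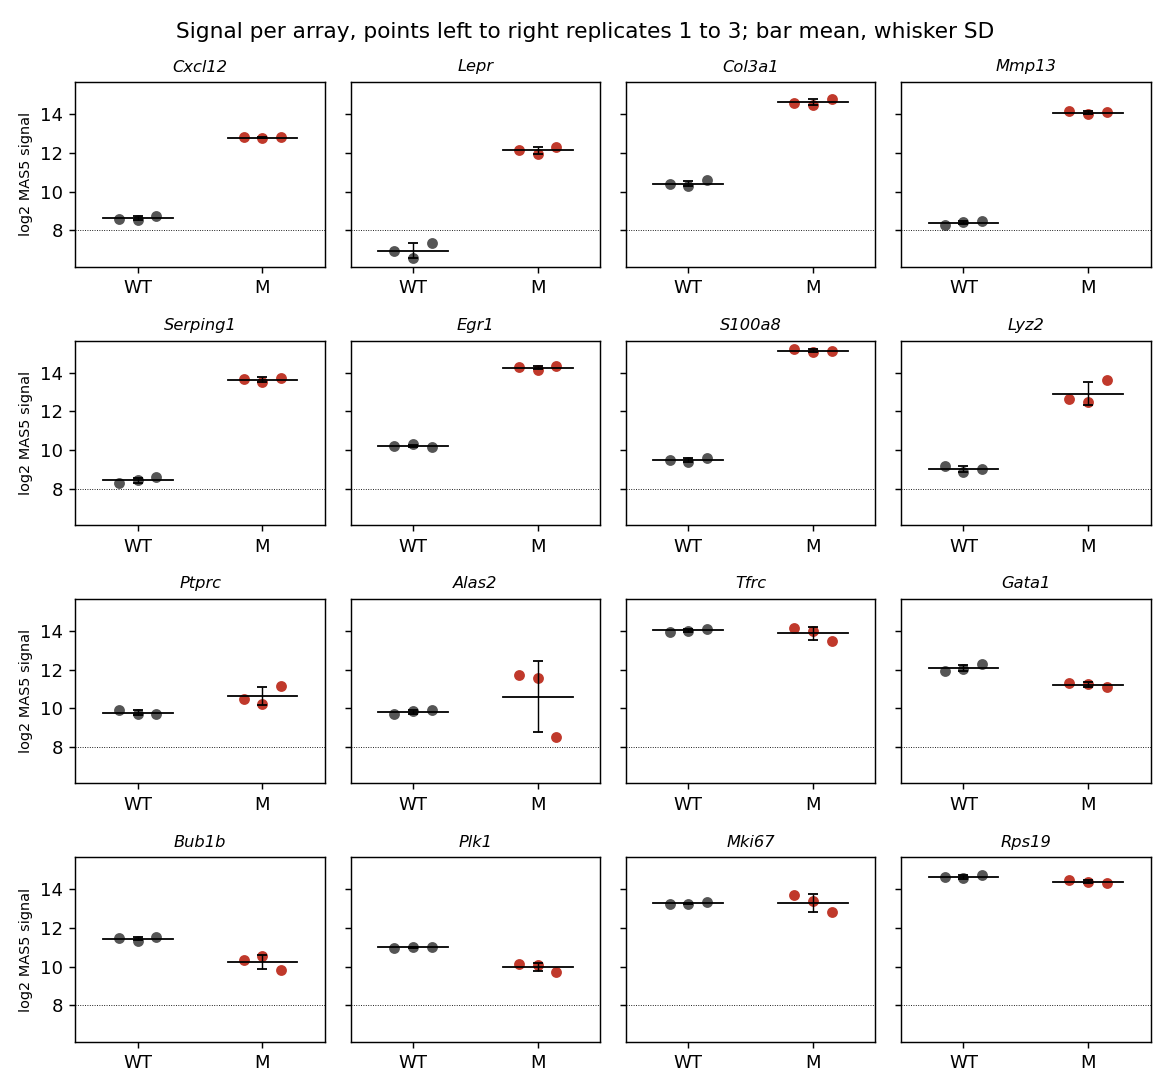
Log2 MAS5 signal (vertical axis) of 16 genes on the 3 WT (grey) and 3 M (red) arrays, points left to right being replicates 1 to 3, with the mean as a bar and the SD as a whisker; the grey line marks a signal of 8. The top 2 rows show genes whose M arrays all lie above the WT arrays; in Alas2, Tfrc and Mki67 the groups overlap, and Gata1, Bub1b, Plk1 and Rps19 lie lower in M. The rise of Ptprc turns into a fall of 0.13 with spike-in scaling, and those of the top 2 rows keep their direction.

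Genes of the collagen matrix rose together. Of 21 fibrillar collagens and fibril partners on the array, 11 had a clear WT signal. Of these, 10 rose and 0 fell, beside 16.4% of all genes with a clear WT signal called higher. Their median was 3.13, and 2.89 without M replicate 3, when 10 were again higher. With spike-in scaling 9 were higher and 1 was lower. Col3a1, the collagen III chain of pliable tissues, read 10.37, 10.29 and 10.57 in WT and 14.60, 14.49 and 14.78 in M (4.21 ± 0.09 SE, adjusted p = 8.75e-11). Lum, the proteoglycan lumican that spaces collagen fibrils, read 9.87, 9.73 and 10.0001 in WT and 13.90, 14.09 and 14.28 in M, 18.7-fold higher. Both genes had clear WT signals and M arrays within 0.4 log2 units of each other. Col1a1, the main collagen chain of bone, read 10.52, 10.82 and 10.68 in WT and 12.83, 13.01 and 13.45 in M, 5.37-fold higher.

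Ogn, a small proteoglycan of bone (5.85 ± 0.33 SE), Postn, periostin (5.63 ± 0.26 SE), and the elastic fibre and matricellular genes Fbln1 (5.60 ± 0.77 SE) and Thbs2 (5.08 ± 0.43 SE) rose from WT signals that were not clear. Over the 21 genes M replicate 3 lay above the mean of the other M arrays in 20 of 21 genes, by a median of 0.58, beside -0.03 over all genes tested.

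Of 17 network collagens and basement membrane genes on the array, 13 passed the filter and 5 had a clear WT signal, of which 4 rose and 0 fell, with a median of 3.54. Col6a3, a chain of the beaded collagen VI, read 10.52, 10.41 and 10.57 in WT and 13.31, 13.27 and 13.70 in M. Col12a1, a collagen of fibril surfaces, rose by 4.05 ± 0.20 SE. Col8a1, a short-chain collagen, read 6.75, 6.38 and 6.89 in WT and 12.60, 12.70 and 12.94 in M. Nid1, which links laminin to collagen IV, rose by 5.06 ± 0.16 SE, the fibril-associated collagen gene Col14a1 by 5.30 ± 0.26 SE and the laminin chain gene Lamb1 by 4.94 ± 0.23 SE. Of 15 tested genes of collagen modification and crosslinking, 8 had a clear WT signal, and these 8 rose, with a median of 2.09 (6 higher and 1 lower with spike-in scaling). Pcolce, an enhancer of procollagen processing, read 8.36, 8.29 and 8.24 in WT and 13.09, 13.17 and 13.95 in M, 34.5-fold higher. Serpinh1, the collagen chaperone HSP47, read 8.76, 8.74 and 8.75 in WT and 12.36, 12.33 and 12.77 in M, 13.3-fold higher. In both genes the WT arrays agreed within 0.2 log2 units. The crosslinking enzymes Lox and Loxl1 rose by 3.92 ± 0.22 SE and 4.56 ± 0.17 SE.

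Of 20 matrix proteases and inhibitors on the array, 13 passed the filter and 5 had a clear WT signal. These 5 rose, with a median of 3.90 (3.42 without M replicate 3, with 5 higher). Mmp13, the collagenase of hypertrophic cartilage and bone, read 8.29, 8.41 and 8.49 in WT and 14.15, 14.00 and 14.10 in M, a rise of 51.5-fold (5.69 ± 0.09 SE, adjusted p = 1.58e-11). The M arrays lay close together, and the groups were more than 5 log2 units apart. The gelatinase gene Mmp2 (4.03 ± 0.32 SE), the bone-resorbing protease gene Ctsk (4.42 ± 0.35 SE) and the inhibitor gene Timp2 (4.59 ± 0.27 SE) rose as well. On M replicate 3 all 13 tested genes lay above the other M arrays' mean, by a median of 1.01. Ctsk is also on the list of osteoclast genes, of which 10 were on the array and 3 passed the filter. Of these, only Acp5 had a clear WT signal, and it fell by 0.76.

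Lists of the skeletal lineages moved the same way. Of 16 chondrocyte genes, 11 had a clear WT signal. These 11 rose, beside 16.4% of all genes with a clear WT signal called higher. Their median was 2.81, and 11 were higher with spike-in scaling (median 1.81). Col2a1, the main collagen of cartilage, read 12.79, 12.79 and 13.04 in WT and 14.37, 14.29 and 14.31 in M. It was already bright in WT and gained 1.45 ± 0.07 SE, the smallest change of the list. Hapln1, which ties aggrecan to hyaluronan, rose by 3.21 ± 0.14 SE, Chad, a leucine-rich cartilage protein, by 3.60 ± 0.20 SE, and the cartilage regulator Sox9 by 3.53 ± 0.25 SE. Prg4, the lubricin of joint surfaces, rose by 5.67 ± 0.26 SE.

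Of 12 osteoblast genes on the array, 6 had a clear WT signal. These 6 rose, beside 16.4% of all genes with a clear WT signal called higher. Their median was 2.81, and 5 were higher with spike-in scaling. Ibsp, bone sialoprotein, read 9.21, 9.20 and 9.38 in WT and 12.67, 12.69 and 13.37 in M. Dmp1, a protein of osteocytes, read 8.20, 8.66 and 8.37 in WT and 11.92, 11.85 and 11.02 in M. Ibsp was highest on M replicate 3, and Dmp1 was lowest there. Pth1r, the receptor of parathyroid hormone, rose by 3.14 ± 0.19 SE. Runx2, Bglap and Spp1 are not analysed here.

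Genes of fat had clearer WT signals than those of pericytes. Of 10 adipogenic genes on the array, 5 had a clear WT signal, and these 5 rose, with a median of 2.25. Of all genes with a clear WT signal, 16.4% were called higher. Adipoq, which codes for the fat cell hormone adiponectin, read 7.33, 7.41 and 7.34 in WT and 10.80, 10.86 and 9.79 in M, and M replicate 3 was again the lowest of its group. Lpl, a lipase of fat cells and stroma, rose by 4.85 ± 0.25 SE. The adipogenic and inflammatory factors Cebpb and Cebpd each rose by 2.62 ± 0.11 SE. Of 14 pericyte genes on the array, 6 passed the filter, 5 of them with a WT mean under it, and 0 had a clear WT signal, so no count is given. Acta2, smooth muscle actin, read 6.11, 6.30 and 6.12 in WT and 9.91, 9.81 and 11.42 in M.

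Endothelial genes gave weak signals, with 11 of 15 on the array under the filter. Of 4 tested, 2 had a clear WT signal, and both fell, beside 53.8% of all genes with a clear WT signal called lower. The junction genes Esam (1.77 ± 0.22 SE) and Cldn5 (1.64 ± 0.25 SE) rose from WT signals that were not clear, and Egfl7, a secreted vessel protein, fell by 0.83 (adjusted p = 0.000475) beside Eng. Cdh5, VE-cadherin, read 4.48 to 6.04 in WT and 7.69 to 8.50 in M, and Pecam1 read 2.95 to 5.93 and 5.78 to 7.15. Both were under the filter. The summed linear signal of the 15 endothelial genes was 1823 to 2005 in WT and 2970 to 3876 in M.

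Of 28 growth factor receptors on the array, 22 passed the filter and 7 had a clear WT signal. These 7 rose, with a median of 1.60, while with spike-in scaling 5 were higher and 1 was lower (median 0.60). Tgfbr2, a TGF-beta receptor, read 8.66, 8.83 and 8.91 in WT and 12.04, 12.15 and 12.58 in M. Insr, the insulin receptor, rose by 0.28 (adjusted p = 0.0234) but stood at -0.72 with spike-in scaling. Among receptors without a clear WT signal, Bmpr1a, a receptor of bone morphogenetic proteins, rose by 4.10 ± 0.26 SE, and Ddr2, a receptor for fibrillar collagen, by 3.84 ± 0.23 SE. Of 12 tested genes of BMP signalling, 2 had a clear WT signal, Smad5 and Twsg1, and rose by 0.79 and 0.91 (-0.21 and -0.09 with spike-in scaling). Fstl1, a secreted follistatin-like protein, read 8.02, 7.80 and 8.19 in WT and 13.17, 13.04 and 13.41 in M (5.21 ± 0.13 SE, adjusted p = 2.14e-10). The groups were nearly 5 log2 units apart at their closest. The BMP target Id3 rose by 4.40 ± 0.18 SE and Id4 by 4.27 ± 0.26 SE.

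Of 15 tested TGF-beta genes, 7 had a clear WT signal. These 7 rose, with a median of 2.83 (6 higher and 1 lower with spike-in scaling). The activin inhibitor Fst rose by 5.03 ± 0.32 SE, the latent TGF-beta binding protein gene Ltbp3 by 3.39 ± 0.28 SE and the target Tgfbi by 3.42 ± 0.24 SE. Of 26 Wnt genes on the array, 8 passed the filter, 4 of them with a WT mean under it. The 2 with a clear WT signal, the receptors Fzd7 and Lrp6, rose by 0.45 and 0.79 (-0.55 and -0.21 with spike-in scaling). Sfrp4, a secreted inhibitor, read 7.59, 7.72 and 7.61 in WT and 11.74, 11.69 and 12.80 in M.

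Of 11 tested genes of insulin-like growth factor signalling, 6 had a clear WT signal, of which 5 rose, with a median of 1.99 (3 higher and 1 lower with spike-in scaling). Igfbp5, a binding protein that modulates the growth factor in bone, read 8.34, 8.21 and 8.16 in WT and 13.13, 13.09 and 13.68 in M, 33.4-fold higher. Igfbp7 read 8.81, 8.57 and 9.11 in WT and 13.11, 12.98 and 13.83 in M, 22.2-fold higher. In both, M replicate 3 was the highest array and all M arrays were more than 3 log2 units above WT. Of 15 Notch genes on the array, 5 passed the filter, and the 1 with a clear WT signal, Notch2, did not pass the test (-0.06). The ligand gene Jag1 read 6.37, 5.97 and 6.35 in WT and 10.06, 9.88 and 10.45 in M.

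Of 13 tested integrins and adhesion genes, 5 had a clear WT signal. Of these, 4 rose, with a median of 0.63, while 2 were higher and 2 lower with spike-in scaling. Itgav, the integrin chain alpha V, rose by 2.95 ± 0.14 SE, and Cd44, the hyaluronan receptor, did not pass the test (-0.01). Without a clear WT signal, Cdh11, the cadherin of osteoblasts, rose by 4.91 ± 0.20 SE. Of 16 tested genes of the actin cytoskeleton and of Yap signalling, 7 had a clear WT signal. Of these, 5 rose, with a median of 0.91, while 3 were higher and 3 lower with spike-in scaling. Among them was the matricellular gene Ccn1, which read 9.98, 9.85 and 10.01 in WT and 13.77, 13.66 and 14.04 in M. Of 21 guidance genes on the array, 8 passed the filter, 5 of them with a WT mean under it, and 0 had a clear WT signal, so no count is given. Of 10 tested imprinted genes, 3 had a clear WT signal and rose, the growth regulator Plagl1 (3.31 ± 0.13 SE), Grb10 (1.27 ± 0.12 SE) and Gnas (0.38 ± 0.06 SE, and -0.62 with spike-in scaling).

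Immediate early genes are switched on quickly when cells are stimulated or a tissue is taken apart. Of 24 members, 13 had a clear WT signal. These 13 rose, with a median of 1.75, beside 16.4% of genes with a clear WT signal called higher. With spike-in scaling 8 were higher and 1 was lower. Egr1, a zinc finger factor, read 10.18, 10.28 and 10.18 in WT and 14.30, 14.15 and 14.33 in M, 16.5-fold higher (4.04 ± 0.07 SE, adjusted p = 1.62e-11). Egr2 (4.53 ± 0.22 SE), the nuclear receptor gene Nr4a1 (4.21 ± 0.23 SE) and Fosl2, a partner of Jun (4.05 ± 0.22 SE), rose from WT signals that were not clear. Times and conditions of dissociation and sorting are not in the labels, and their part in these values was not tested.

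Of 16 tested inflammatory mediators, 6 had a clear WT signal. These 6 rose, with a median of 2.62, and 4 were higher and 0 lower with spike-in scaling. Ptgs2, the inducible cyclooxygenase, read 9.97, 9.96 and 10.29 in WT and 12.52, 12.60 and 12.95 in M. Nfkbia, the inhibitor of NF-kappa-B, rose by 0.83 ± 0.08 SE but stood at -0.18 with spike-in scaling. Il6, interleukin 6, read 5.75, 5.93 and 6.30 in WT and 10.94, 10.78 and 10.40 in M. Socs3, the inhibitor of its signalling, read 8.20, 7.42 and 8.19 in WT and 12.91, 12.95 and 13.13 in M. For both genes every M array exceeded every WT array by more than 4 log2 units. Saa3, an acute phase protein, rose by 4.42 ± 0.37 SE, and Tnfaip6, a hyaluronan-binding inflammatory protein, by 4.31 ± 0.26 SE.

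Of 13 tested chemokine genes, 4 had a clear WT signal, of which 3 rose, with a median of 2.51. Cxcl1, which attracts neutrophils, read 9.20, 9.002 and 9.11 in WT and 13.56, 13.42 and 13.46 in M, 20.8-fold higher. Cxcl14 (4.63 ± 0.26 SE) and the eosinophil attractant Ccl11 (4.58 ± 0.32 SE) rose from signals under 6. Of 6 tested complement genes, 3 had a clear WT signal, of which 2 rose and 1 fell. Serping1, the C1 inhibitor, read 8.31, 8.42 and 8.58 in WT and 13.67, 13.50 and 13.74 in M, 36.7-fold higher. The proteases C1s1 and C1ra rose by 5.26 ± 0.32 SE and 4.85 ± 0.26 SE. Cd59a, an inhibitor of complement lysis on blood cells, fell by 0.57 (adjusted p = 0.000218). Cd55, another such inhibitor, rose by 0.24 (adjusted p = 0.0483), but only 1 gene of the 3 was higher without M replicate 3, and Cd55 stood at -0.76 with spike-in scaling.

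The interferon list was mixed. Of 11 genes with a clear WT signal, 6 rose, 2 fell and 3 did not pass, with a median of 0.38. With spike-in scaling the median became -0.63 (3 higher, 8 lower). Over all genes with a clear WT signal the median was -0.30, and -1.30 with spike-in scaling. Rsad2, the antiviral protein viperin, read 8.19, 8.72 and 8.51 in WT and 12.26, 12.23 and 9.30 in M. M replicates 1 and 2 were far above WT, and M replicate 3 lay just above the WT arrays (2.79 ± 0.61 SE, adjusted p = 0.00184, and 3.77 without replicate 3). Irf1, an interferon-responsive factor, read 7.47, 7.82 and 7.82 in WT and 10.14, 10.16 and 10.10 in M. The deubiquitinase-like gene Usp18 fell by 0.74 (adjusted p = 0.00441, and by 0.46 without M replicate 3) and Ifit2 by 0.52 (adjusted p = 0.0033).

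**Figure D4:**
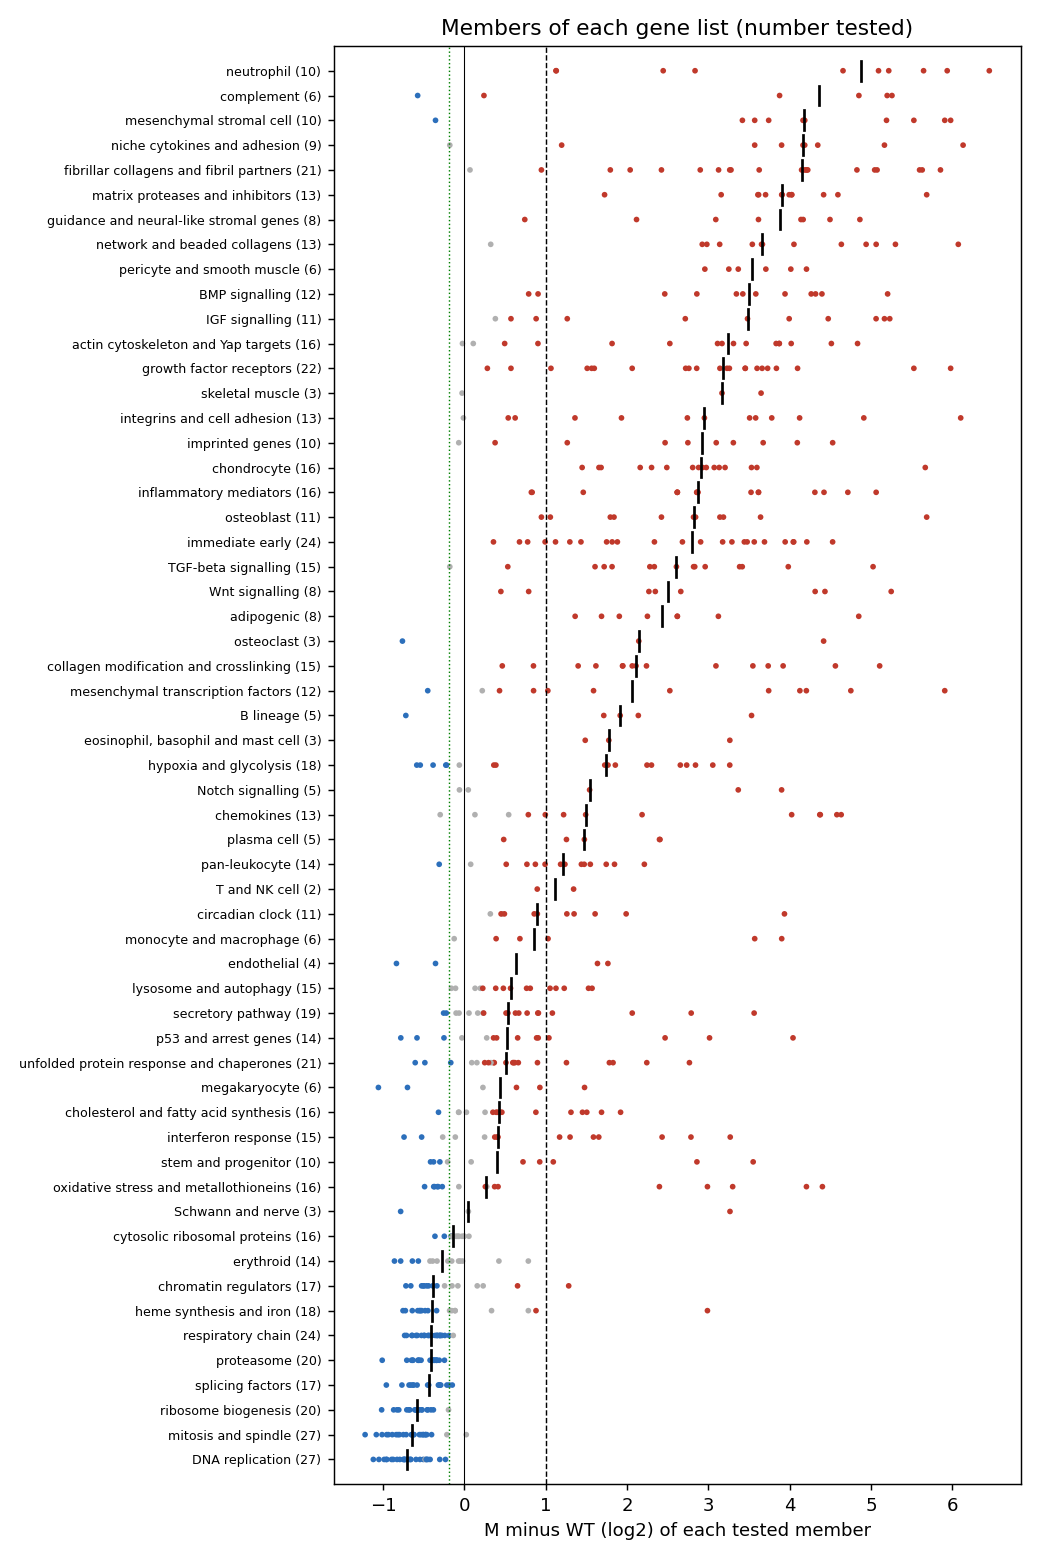
Log2 difference between M and WT (horizontal axis) of each tested member of 57 gene lists (rows, number tested in parentheses); red members were called higher, blue lower, grey were not called, and the black tick is the list median. The dotted line marks the median of all 9097 genes (-0.19) and the dashed line the spike-in shift of 1.00; members without a clear WT signal could pass the filter through M, and lists whose median lies between 0 and that line have a median below 0 with spike-in scaling.

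Lists of secretion, stress and metabolism had small medians over the members with a clear WT signal, over which these counts run. Of 19 genes of the unfolded protein response, 13 rose and 3 fell on the deposited scale (median 0.37). With spike-in scaling 2 were higher and 12 lower (median -0.63). Most genes were lower on that scale, 6333 of the 7037 with a clear WT signal, with a median of -1.30. The list median thus lay above that of all such genes on both scales. The spike-in counts of the lists that follow are to be read beside the same values. Dnajb9, a chaperone of the endoplasmic reticulum, read 10.27, 10.24 and 10.05 in WT and 12.39, 12.31 and 12.59 in M, and it rose on both scales. Chac1, which degrades glutathione under stress, rose by 2.77 ± 0.20 SE. Asns, asparagine synthetase, fell by 0.60 (adjusted p = 4.39e-05). Of 17 genes of the secretory pathway, 10 rose and 2 fell (1 and 10 with spike-in scaling). Kdelr3, a retrieval receptor (3.56 ± 0.28 SE), Creb3l2, a membrane-bound factor of cartilage (2.79 ± 0.16 SE), and Sec24d, the coat protein needed to export procollagen (2.07 ± 0.14 SE), rose on both scales. Only 1 of these 3 genes had a clear WT signal.

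Of 13 genes of hypoxia and glycolysis, 7 rose and 5 fell, with a median of 0.36 (5 and 8, with a median of -0.64, with spike-in scaling). Slc2a1, the glucose transporter GLUT1, read 8.51, 8.58 and 8.66 in WT and 11.69, 11.75 and 12.10 in M, 9.61-fold higher. Hk2, an inducible hexokinase, rose by 2.73 ± 0.11 SE and Vegfa, the vessel growth factor, by 2.84 ± 0.18 SE, whereas Hk1, the constitutive hexokinase, fell by 0.54 (adjusted p = 0.000815) and the mitochondrial kinase gene Pdk1 by 0.58 (adjusted p = 0.00203). Of 16 genes of cholesterol and fatty acid synthesis, 11 rose and 1 fell (4 and 10 with spike-in scaling). Hmgcs1, an early enzyme of the pathway, read 10.64, 10.53 and 10.50 in WT and 12.46, 12.43 and 12.53 in M, and it rose on both scales. Fasn, fatty acid synthase, fell by 0.32 (adjusted p = 0.00316).

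Among 10 p53 and arrest genes with a clear WT signal, 5 rose and 3 fell (1 and 7 with spike-in scaling). Cdkn1a, the cell cycle inhibitor p21, read 8.90, 8.89 and 8.73 in WT and 11.78, 11.85 and 11.94 in M, 8.09-fold higher. Gadd45b, a stress-response gene, rose by 4.04 ± 0.22 SE from a WT signal that was not clear. Zmat3, a p53 target, fell by 0.78 (adjusted p = 0.000546). Of 12 oxidative stress genes, 4 rose and 6 fell (1 and 11 with spike-in scaling). On both scales the share called lower was near that over all genes with a clear WT signal. The peroxidases Gpx8 (4.40 ± 0.19 SE) and Gpx3 (4.21 ± 0.29 SE) rose from WT signals that were not clear. Sod2, the superoxide dismutase of mitochondria, fell by 0.49 (adjusted p = 3.59e-05). Of 15 lysosome and autophagy genes, 11 rose and 0 fell, but 2 were higher and 8 lower with spike-in scaling. Hexa, a lysosomal hexosaminidase, was among the larger changes (1.53 ± 0.13 SE). Of 4 clock genes, 3 rose and 0 fell, but with spike-in scaling 1 was higher and 2 lower. The repressor gene Bhlhe40 rose by 3.94 ± 0.16 SE.

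Genes of neutrophils were also far higher in M. Of 13 on the array, 5 had a clear WT signal. These 5 rose, beside 16.4% of all genes with a clear WT signal called higher. Their median was 2.45, and 3 were higher with spike-in scaling (median 1.44). S100a8 and S100a9, the calcium-binding proteins that fill neutrophil cytoplasm, had clear WT signals. S100a8 read 9.47, 9.38 and 9.60 in WT and 15.22, 15.05 and 15.13 in M, 50.1-fold higher. S100a9 read 8.11, 8.03 and 8.34 in WT and 14.52, 14.39 and 14.93 in M, 87.7-fold higher (6.46 ± 0.13 SE, adjusted p = 5.49e-11), the largest rise among genes with a clear WT signal. In both genes the M arrays lay within 0.6 log2 units of each other. Lcn2, an iron-sequestering granule protein (5.94 ± 0.21 SE), and Camp, the cathelicidin of secondary granules (5.22 ± 0.18 SE), rose from lower signals. The summed linear signal of the 13 neutrophil genes on the array was 9982 to 11074 in WT and 94041 to 113781 in M.

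Markers of leukocytes in general changed less. Of 10 with a clear WT signal, 9 rose and 1 fell, with a median of 1.21, but with spike-in scaling 3 were higher and 2 lower (median 0.21). Ptprc, which codes for CD45, read 9.91, 9.68 and 9.70 in WT and 10.50, 10.25 and 11.17 in M, a rise of 1.83-fold (adjusted p = 0.00192) that became a fall of 0.13 with spike-in scaling and was not called with the mean of the gene's probe sets. The gap between the groups on the deposited scale, from 9.91 to 10.25, was smaller than the spread among the M arrays. Cd53, a tetraspanin of leukocytes, read 8.97, 8.97 and 8.99 in WT and 10.94, 10.69 and 11.95 in M. The cytoskeletal genes Lsp1 (1.85 ± 0.25 SE) and Lcp1 (1.55 ± 0.17 SE) rose. On M replicate 3, 13 of the 14 tested markers lay above the other M arrays' mean, by a median of 0.59. Without it the median of the 10 was 0.95, with 9 higher and 1 lower.

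Other blood lineages gave partial lists. Of 15 monocyte and macrophage genes on the array, 4 had a clear WT signal, of which 3 rose. The count was 2 after quantile normalization and 2 without M replicate 3. Scaled on the spike-ins, 1 was higher and 2 lower. Among them was Lyz2, lysozyme of myeloid cells, which read 9.14, 8.86 and 9.03 in WT and 12.63, 12.50 and 13.60 in M. The macrophage receptor Csf1r, named after its value was seen, did not pass (-0.12), and the complement genes C1qa, C1qb and C1qc were under the filter. Mcpt8 of basophils (3.27 ± 0.26 SE) and Prg2 of eosinophils (1.78 ± 0.13 SE) rose. Of 13 B lineage genes on the array, 5 passed the filter, 4 of them with a WT mean under it, and 0 had a clear WT signal. Igll1, a surrogate light chain gene, read 6.43, 5.31 and 6.70 in WT and 9.39, 9.51 and 10.14 in M, and Dntt, the polymerase that adds bases at immunoglobulin joins, fell by 0.72 (adjusted p = 0.00921). Ighm, the heavy chain of IgM, read 9.55, 9.95 and 9.51 in WT and 11.62, 11.14 and 13.47 in M, so that M replicate 3 was well above the other M arrays. Its rise was 2.41 ± 0.45 SE, and 1.71 without M replicate 3.

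Megakaryocyte and progenitor genes had no common direction. The chemokine Ppbp of platelets rose by 1.48 ± 0.26 SE (not called with spike-in scaling), and the platelet glycoprotein genes Gp9 and Gp5 fell by 1.06 (adjusted p = 0.000147) and 0.70 (adjusted p = 0.00575). Itga2b, the platelet integrin, rose by 0.93 (adjusted p = 0.00236) but stood at -0.07 with spike-in scaling. Of 7 stem and progenitor genes with a clear WT signal, 2 rose and 3 fell, beside 16.4% and 53.8% of all such genes. Procr, a receptor of stem cells and endothelium (3.55 ± 0.24 SE), and Cd34, shared by progenitors, endothelium and fibroblasts (2.86 ± 0.21 SE), rose. Only 1 of these 2 genes had a clear WT signal. The progenitor factor gene Myb fell by 0.38 (adjusted p = 0.00653).

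**Figure D5:**
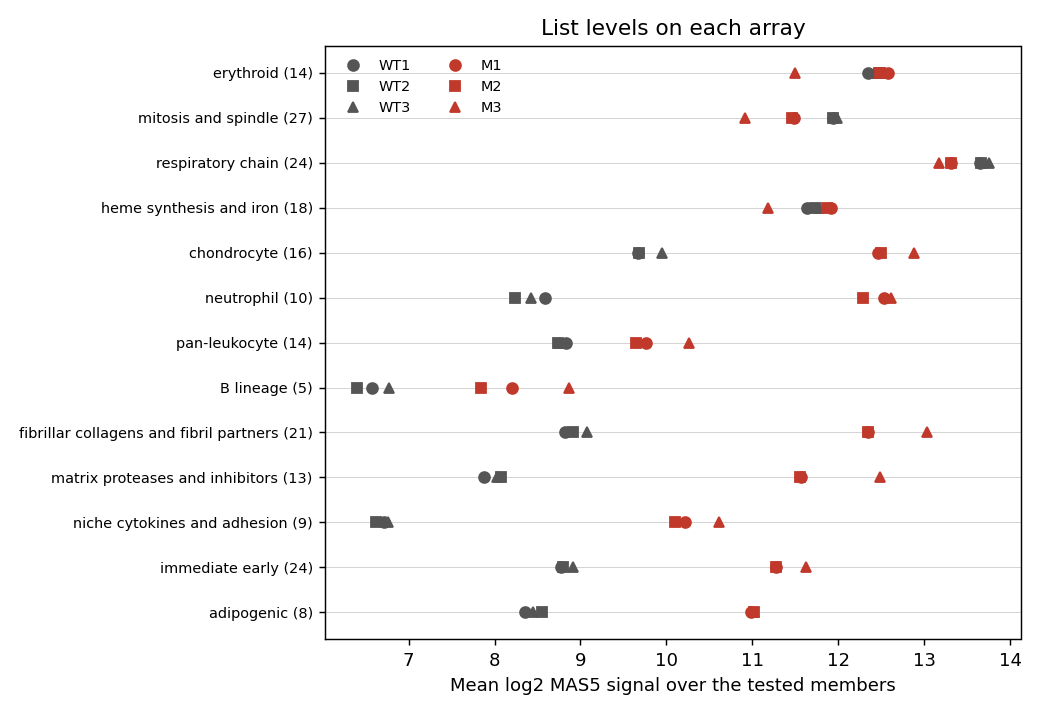
Mean log2 MAS5 signal over the tested members (horizontal axis) of 13 gene lists (rows, number of members in parentheses) on each WT (grey) and M (red) array; circles, squares and triangles are replicates 1, 2 and 3. M replicate 3 lies below the other M arrays in the erythroid, mitosis and heme lists and above them in the matrix, protease and pan-leukocyte lists.

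Erythroid genes changed little as a group, but M replicate 3 differed from the other M arrays. Of 14 tested, all with a clear WT signal, 0 rose, 4 fell and 10 did not pass, with a median of -0.27. Of all genes with a clear WT signal, 53.8% were called lower, with a median of -0.30. Of all genes with a mean WT signal between 12 and 13, 73.6% were, with a median of -0.45. The count lower was 11 when arrays were scaled on the hybridization controls and 13 with spike-in scaling (median -1.27). The falls were of regulators and a membrane skeleton gene. Gata1, the master factor of red cells, read 11.94, 12.05 and 12.27 in WT and 11.33, 11.28 and 11.09 in M (fall of 0.86, adjusted p = 1.2e-05). Epor, the erythropoietin receptor, read 10.17, 10.10 and 10.23 in WT and 9.42, 9.26 and 9.47 in M (fall of 0.78, adjusted p = 1.49e-05). Both genes were lower on every M array, with a gap of more than 0.6 log2 units. Klf1, a globin activator, fell by 0.56 (adjusted p = 0.0147), and by 0.30 without M replicate 3, a call that ended without WT replicate 3 (adjusted p = 0.06). Ank1, which anchors the membrane skeleton, fell by 0.64 (adjusted p = 0.029), and by 0.27 without M replicate 3, a call that ended without WT replicate 2 or 3 (adjusted p = 0.0787 and 0.0786, respectively). Tfrc, the transferrin receptor, read 13.97, 14.01 and 14.11 in WT and 14.13, 14.00 and 13.50 in M, and the groups overlapped. Its change was -0.15 (adjusted p = 0.314), and 0.04 without M replicate 3.

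Genes of late red cell maturation divided the M arrays. Their choice followed a look at the values, from the genes with the largest spread among the M arrays. Alas2, the first enzyme of heme synthesis in red cells, read 9.69, 9.86 and 9.90 in WT, 11.74 and 11.58 on M replicates 1 and 2 and 8.50 on replicate 3. Its change was 0.79 with all arrays (adjusted p = 0.3) and 1.84 without replicate 3 (adjusted p = 1.83e-08). Hbb-b2, an adult beta globin, read 9.48, 9.82 and 9.36 in WT and 12.21, 12.50 and 8.98 in M. Its change was 1.68 (adjusted p = 0.0498) and 2.81 without replicate 3 (adjusted p = 3.91e-10). Replicates 1 and 2 lay above the WT range and replicate 3 below it in both genes.

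Slc4a1, the anion exchanger of the red cell membrane, read 13.30, 13.51 and 13.33 in WT and 14.09, 13.99 and 11.997 in M, a change of -0.02 (adjusted p = 0.968) that was 0.66 without replicate 3 (adjusted p = 1.81e-05). Bpgm, which makes the regulator of hemoglobin's oxygen affinity, changed by 1.01 (adjusted p = 0.0583) and by 1.72 without replicate 3 (adjusted p = 9.46e-11). Tmcc2 and Xpo7, a nuclear export factor, were above WT on all M arrays, by 3.01 and 2.70, and by 4.06 and 3.46 without replicate 3. Of 40 genes with an SD over 1 among the M arrays, replicate 3 was the farthest array in 38, above the others in 12 of these. Over the whole erythroid list, 3 of 14 genes were higher and 4 lower without replicate 3, with a median of -0.01. The summed linear signal of the 15 erythroid genes on the array was 136244 to 151398 in WT and 91946 to 153450 in M. Ter119 selects against maturing red cells, and how well the sort did so on each array was not tested.

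Of 17 genes of heme synthesis and iron handling with a clear WT signal, 10 fell and 1 rose, a share near the 53.8% of all genes with a clear WT signal called lower. Slc25a38, a mitochondrial glycine carrier, fell by 0.75 (adjusted p = 0.00581, and by 0.45 without M replicate 3) and the iron transporter gene Slc11a2 by 0.72 (adjusted p = 0.000218). Hmox1, which breaks heme down, is not among the 17. It rose by 2.99 ± 0.33 SE from a WT mean under the filter, which a rise was needed to pass. Alas1, the form of Alas2 used outside red cells, rose by 0.88 (adjusted p = 6.86e-05) but stood at -0.12 with spike-in scaling. Without M replicate 3, 8 of the 17 were lower and 4 higher.

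Genes of dividing cells were lower in M. Of 27 tested genes of mitosis and the spindle, all with a clear WT signal, 25 fell, 0 rose and 2 did not pass, beside 53.8% of clear-signal genes called lower. Their median was -0.64, beside -0.30 over all genes with a clear WT signal. Without M replicate 3 it was -0.46, beside -0.26 over those genes, with 24 lower and 1 higher. The list had a mean WT level of 11.95, and bright genes in general were lower. Of all genes with a mean WT signal between 11 and 12, 67.4% were called lower, with a median of -0.42. Between 12 and 13 the values were 73.6% and -0.45. Bub1b, a kinase of the spindle checkpoint, read 11.48, 11.34 and 11.52 in WT and 10.33, 10.55 and 9.82 in M, 2.33-fold lower (adjusted p = 3.02e-05). Plk1, the polo-like kinase of mitotic entry, read 10.95, 11.04 and 11.003 in WT and 10.13, 10.10 and 9.72 in M, 2.01-fold lower (adjusted p = 7.54e-06). In both genes all M arrays lay below WT, and replicate 3 was the lowest. Kif20a, a kinesin of cell division, fell by 1.08 and Aurkb, a kinase of chromosome segregation, by 0.95 (adjusted p = 0.000102 and 0.000446). Mki67, a marker of cycling cells, read 13.26, 13.24 and 13.32 in WT and 13.69, 13.39 and 12.81 in M, with replicates 1 and 2 above and replicate 3 below WT (change 0.03, adjusted p = 0.907, 0.27 without replicate 3 and -0.98 with spike-in scaling). On M replicate 3, 0 of the 27 genes lay above the mean of the other M arrays, and the median difference was -0.57.

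Because the mitotic genes moved together, their promoters are shown, as the 300 bases around the transcription start from RefSeq (GRCm38.p6). The motifs searched on both strands were CCAAT, bound by NF-Y, TTTGAA, the core of the cell cycle homology region, GATAA, bound by GATA factors, CACCC, bound by Klf factors, and TATAAA, and none of these contains another. RefSeq gave 25 promoters for 24 of the 28 listed mitotic genes. CCAAT was found in 84% of them and in 37.4% of all 32851 promoters, and TTTGAA in 76% and 17.9%. For 13 promoters of 12 erythroid genes, GATAA was found in 69.2% (25.4% of all) and CACCC in 92.3% (57.5% of all). For 18 promoters of 14 fibrillar matrix genes, TATAAA was found in 33.3% (13.6% of all). These are matches of letters and describe no binding. Bub1b and Plk1 are shown as the mitotic genes with per-array values above, Col3a1 and S100a8 as a matrix and a neutrophil gene among the rises, each 5′ to 3′ along its own strand with the matches, on either strand, in capitals (the first pair of motifs in the mitotic genes, the last motif in the others). They lie on the plus strand at chr2:118597961-118598260 (Bub1b), chr7:122159185-122159484 (Plk1), chr1:45311288-45311587 (Col3a1) and chr3:90668821-90669120 (S100a8).
Bub1b: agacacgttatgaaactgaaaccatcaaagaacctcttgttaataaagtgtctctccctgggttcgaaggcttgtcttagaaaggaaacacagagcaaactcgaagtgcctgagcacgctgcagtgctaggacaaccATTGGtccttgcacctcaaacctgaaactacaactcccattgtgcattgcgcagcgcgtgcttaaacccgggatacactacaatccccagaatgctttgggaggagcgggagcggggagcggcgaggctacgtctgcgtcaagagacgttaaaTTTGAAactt
Plk1: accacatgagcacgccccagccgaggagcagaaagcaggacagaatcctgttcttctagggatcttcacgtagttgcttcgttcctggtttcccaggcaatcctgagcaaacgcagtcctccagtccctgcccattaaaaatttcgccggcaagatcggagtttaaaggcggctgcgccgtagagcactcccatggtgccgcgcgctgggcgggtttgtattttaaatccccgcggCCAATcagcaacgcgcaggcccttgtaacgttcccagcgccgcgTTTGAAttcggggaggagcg
Col3a1: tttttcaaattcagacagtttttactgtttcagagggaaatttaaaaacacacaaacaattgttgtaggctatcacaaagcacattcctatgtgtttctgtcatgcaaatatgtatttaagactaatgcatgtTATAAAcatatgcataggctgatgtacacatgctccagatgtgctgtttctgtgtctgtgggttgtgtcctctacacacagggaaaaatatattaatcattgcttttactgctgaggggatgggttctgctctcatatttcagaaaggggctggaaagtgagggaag
S100a8: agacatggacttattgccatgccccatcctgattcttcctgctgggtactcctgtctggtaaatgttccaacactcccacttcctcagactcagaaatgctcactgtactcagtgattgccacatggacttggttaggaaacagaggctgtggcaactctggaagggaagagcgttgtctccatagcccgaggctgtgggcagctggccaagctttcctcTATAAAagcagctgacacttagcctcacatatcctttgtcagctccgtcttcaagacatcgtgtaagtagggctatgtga
The CCAAT match of Bub1b lies on the other strand, where it is printed as its reverse complement.

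DNA replication genes fell with the mitotic genes. All 26 with a clear WT signal were called lower, beside 53.8% of all such genes. Their median was -0.72 (-0.55 without M replicate 3, with 24 lower). The tested genes of the list had a mean WT level of 12.65. Of all genes with a mean WT signal between 12 and 13, 73.6% were called lower, with a median of -0.45. Tk1, thymidine kinase, read 11.76, 12.06 and 12.02 in WT and 11.01, 10.999 and 10.49 in M, 2.17-fold lower. Gins1, a part of the replicative helicase, fell by 1.05 (adjusted p = 0.000101), Lig1, which joins the lagging strand, by 0.98 (adjusted p = 1.33e-05) and Pold1, the catalytic chain of a replicative polymerase, by 0.96 (adjusted p = 2.1e-05). For Tk1 every M array lay below every WT array, and replicate 3 was the lowest. Tyms, thymidylate synthase, named after its value was seen, did not pass the test (-0.48).

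Housekeeping lists were lower with small changes, and bright genes in general were too. Of all genes with a clear WT signal 53.8% were called lower, and of those with a mean WT signal between 11 and 12 and between 12 and 13, 67.4% and 73.6% were, with medians of -0.42 and -0.45. The medians of the respiratory chain, proteasome and splicing lists below are close to these. Of 20 tested genes of ribosome biogenesis, 19 fell, with a median of -0.58. Polr1b, a core chain of RNA polymerase I, read 10.40, 10.33 and 10.38 in WT and 9.38, 9.44 and 9.25 in M (adjusted p = 9e-07), and Nolc1, a nucleolar scaffold, fell by 0.80 (adjusted p = 4.51e-06). Of 24 respiratory chain genes, 23 fell, with a median of -0.40. Ndufs1 of complex I fell by 0.73 (adjusted p = 1.25e-06), and Cyc1 of the bc1 complex by 0.64 (adjusted p = 8.07e-06). All 20 tested proteasome genes fell, with a median of -0.41, including Psmb3, which fell by 0.71 (adjusted p = 4.95e-06). Of 17 splicing factors, 16 fell, with a median of -0.44, among them Prpf8, the core protein of the spliceosome, by 0.77 (adjusted p = 2.34e-05).

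Of 16 chromatin regulators with a clear WT signal, 10 fell and 2 rose, beside the same 53.8% of such genes called lower. Dnmt1, which maintains DNA methylation, fell by 0.72 (adjusted p = 0.000188). Kdm6b, an inducible histone demethylase, rose by 1.28 ± 0.12 SE (not called with spike-in scaling), and Tet2, which oxidises methylated DNA, rose by 0.66 (adjusted p = 0.00388) but stood at -0.35 with spike-in scaling. Of 16 cytosolic ribosomal proteins, 3 were called lower and 0 higher, with a median of -0.14. These counts were 7 lower and 1 higher after quantile normalization, 10 lower with median-centred arrays and 16 lower with spike-in scaling. Rps19 read 14.61, 14.56 and 14.73 in WT and 14.47, 14.40 and 14.31 in M (fall of 0.24, adjusted p = 0.0056). All M arrays lay below the WT arrays, by a narrow margin.

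The largest falls among genes with a clear WT signal were small beside the rises. Pdia2, a tissue-restricted disulfide isomerase, read 10.71, 11.06 and 10.996 in WT and 9.61, 9.64 and 8.90 in M, 2.91-fold lower (adjusted p = 1.74e-05). Hpn, the membrane protease hepsin, read 9.79, 9.89 and 9.72 in WT and 8.27, 8.23 and 8.37 in M, 2.85-fold lower (adjusted p = 1.02e-07). In Hpn the M arrays were close to each other, while in Pdia2 replicate 3 was the lowest. Redrum, a long noncoding RNA of red cells, fell by 1.49, Slc6a13, a transporter of the inhibitory transmitter GABA, by 1.45, Spata24 by 1.42 and Tac2, a tachykinin precursor, by 1.36 (adjusted p = 1e-05, 1.85e-07, 1.05e-07 and 0.00621). Tac2 read 9.53, 9.51 and 7.77 in M, so its fall was deepest on replicate 3 and was 0.78 without it. Rrp1b and Chtf18, genes of the nucleolus and of the replication clamp loader, fell by 1.29 and 1.30 (adjusted p = 3.39e-07 and 1.75e-05).

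Among genes without a clear WT signal, Chil3, a chitinase-like protein of myeloid cells, read 6.78, 6.66 and 6.56 in WT and 14.85, 14.65 and 14.71 in M. The change of 8.07 ± 0.09 SE was the largest of all genes tested. The WT mean of Chil3, 6.67, lay under the filter of 6.83, so a rise was needed to pass it and no p-value is given. Thbs4, a thrombospondin of tendon and cartilage, read 3.05, 4.48 and 6.17 in WT and 11.68, 11.76 and 13.73 in M, and Olfm4, a granule protein of neutrophil subsets, read 5.22, 2.59 and 5.03 in WT and 11.45, 11.35 and 12.49 in M. For these genes the WT arrays spread over more than 2 log2 units at low signals, so the size of the rise is uncertain. Aspn, an extracellular proteoglycan (6.17 ± 0.34 SE), Ccn3, a matricellular protein (6.12 ± 0.29 SE), and Mycn, a Myc-family factor (6.27 ± 0.52 SE), followed. Mycn read 10.58, 10.63 and 11.19 in M. Thbs4, Olfm4, Aspn, Ccn3 and Mycn also had WT means under the filter, so a rise was needed to pass it.

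The same genes are set beside their early phase values, which use the same WT arrays and are thus not independent of the values above. S100a8 differed from WT by 2.24 in E and 5.65 in M, S100a9 by 2.50 and 6.46, Chil3 by 3.64 and 8.07 and Prg2 by 1.62 and 1.78. Mmp13 differed by -0.08 in E and 5.69 in M, Serping1 by -0.03 and 5.20, Lepr by -0.09 and 5.19 and Bub1b by 0.07 and -1.22. The difference between M and E was itself tested. It was called for S100a8 (adjusted p = 4.25e-10), Mmp13 (adjusted p = 1.7e-11), Serping1 (adjusted p = 6.1e-11), Lepr (adjusted p = 6.41e-09) and Bub1b (adjusted p = 1.66e-05), and not for Prg2 (adjusted p = 0.291).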

How the data were processed

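Total RNA was measured on Affymetrix 3' expression arrays, 1 array per sample. Per the labels, the deposited values are MAS5 signals on a log2 scale. The MAS5 version is not given in the sources used here. Each array's trimmed mean (2% off each end) was 500.0 on the linear scale, as the files show. Values were used as deposited. Of 45101 probe sets, 34958 had 1 gene symbol, 932 had several and 9211 had none listed, and only the first kind was named. The probe set with the highest mean over 9 arrays stood for its gene, and genes at or above the median of those means (6.83) were tested.

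A linear model over all 9 arrays (limma 3.58.1 in R 4.3.3, lmFit and eBayes with an intensity trend) gave the differences, with standard errors (SE) and Benjamini-Hochberg adjusted p-values over all 9097 genes. Calls needed an adjusted p under 0.05. Controls were tested by exact permutation. On simulated data, with changes in a small part of the genes and no shift of whole arrays, the script recovered most of the larger changes. It was not tried with as many changed genes as here, or with a shift of whole arrays. P-values measure the spread between these samples only. Alternatives covered scaling, filters, probe set choice and left-out arrays.

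The gene lists, the named-gene rule and the comparison were chosen with earlier results of these data known. The rule took the 12 largest rises and 12 largest falls with a clear WT signal, the 8 largest rises without one, up to 4 called members per list with up to 2 in the opposite direction, and a fixed panel. Of 1089 list symbols, 88 were not matched and are not analysed here.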

Additional observations from a re-analysis of the deposited data

Results flagged for a closer look

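Probe sets with no listed gene were outside the comparisons. Of 9211 such probe sets, 51 were array controls, and of the other 9160, 1315 passed the brightness filter, and 190 of these (14.4%) were called higher in M than in WT by limma, beside 246 (18.7%) called lower. The largest rise was 5.55 on the log2 scale. They were set aside because a signal above the controls appeared in data that the report does not use. The filter used the mean over all arrays, so dim probe sets could pass it through the M arrays. The probe sets have no gene name here, and what they measure was not tested.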

How the results depend on the processing

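Without a brightness filter, 4032 genes were higher, and 1842 with spike-in scaling. A stricter filter left 3466 called, 698 higher, 695 of them among those higher with a clear WT signal, and with spike-in scaling 4337 called, 181 higher and 4156 lower. Spike-in scaling gave 972 higher and 7204 lower, and 272 and 6333 among genes with a clear WT signal. The mean of a gene's probe sets gave 643 higher with a clear WT signal. The share of called genes that were higher was 36.8%, and 51.2% without a filter, 20.1% with the stricter filter and 11.9% with spike-in scaling. Calls of at least a doubling or halving numbered 1456, 1291 higher and 165 lower. With spike-in scaling the signs of Cd74 (-0.32), Itga2b (-0.0722), Zap70 (-0.10), Slamf1 (-0.0739), Alas1 (-0.12), Tet2 (-0.35), Ptprc (-0.13) and Mki67 (-0.98) turned. Leaving out 1 array at a time gave 5721 to 6334 called (2116 to 2358 higher, 3597 to 3976 lower), 4546 to 5045 with a clear WT signal (1058 to 1235 higher, 3484 to 3810 lower), 7853 to 8240 with spike-in scaling (878 to 1103 higher, 6883 to 7326 lower) and a spike-in shift of 0.84 to 1.13. The same replicate numbers did not pair the arrays (correlations of deviations -0.07, 0.06 and 0.01). With the replicate block, 6100 genes were called, 2253 higher and 3847 lower. The number of arrays and low WT signals limit these values, and the cause of each shift was not tested.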
